A study of Mus musculus with 14 samples.

Results

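Cdk9-DN cells at day 10 of reprogramming were compared with control-vector cells at day 5, using 2 libraries of each group out of the 14 in the series. The 4 libraries were chosen by their titles, and every gene was considered that at least 1 library of each group listed: 23911 genes, of 25801 listed in any of the 4 libraries and 26962 listed in any library of the series. Mouse embryonic fibroblasts of the OG2/129SV background had been transduced with Oct4, Sox2, Klf4 and c-Myc, a combination abbreviated OSKM, and with either Cdk9-DN or a control vector, and were grown in embryonic stem cell medium with LIF. Both groups thus carried the same 4 reprogramming factors. The first group also carried Cdk9-DN and was collected 10 days after infection, and the second carried the control vector and was collected 5 days after infection. Other groups used here were control vector at day 10, Cdk9-DN at day 4 and control vector at day 4, with 2 libraries each. Because vector and day change together in the comparison, their parts in any difference cannot be told apart from these 4 libraries alone. The labels do not say whether replicates were separate cultures or infections, and the tests below therefore rest on a spread between libraries that may be technical.

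Cdk9 is the kinase of P-TEFb, the complex that releases RNA polymerase II from its pause just downstream of the start site so that it can elongate, and a dominant-negative form interferes with that kinase. Fibroblasts that receive the OSKM factors first lose mesenchymal gene expression and gain epithelial genes, a change called the mesenchymal-to-epithelial transition, and activate the pluripotency network later. The question set by the comparison was whether Cdk9-DN cells at day 10 resemble control cells of an earlier day, or hold levels that control cells show at neither day.

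Levels are the authors' FPKM, a fragment count scaled by transcript length and library size, so that the levels of different genes can be set side by side. A difference is the mean log2(FPKM + 1) of one group minus that of the other, which understates the change of genes with low values. A gene was called where limma's two-sided moderated test gave a Benjamini-Hochberg adjusted p under 0.05. Of the 23911 genes, 5798 were tested, since the other 18113 did not reach 1 FPKM in at least 2 of the 12 libraries fitted or had too few listed values. Depth, estimated from the width of the confidence bounds that the files give beside each FPKM, was about 12700000 and 12950000 fragments for Cdk9-DN day 10 and 12010000 and 8790000 fragments for control day 5. Control day 5 replicate 2 stood apart, since its 10 highest entries held 76.1% of all FPKM, against 40.4% in control day 5 replicate 1 and 56.0% and 51.5% in the Cdk9-DN day 10 libraries.

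Markers of the starting and target cells were checked first, as sums of FPKM over the markers listed in all 4 libraries. The 5 of 10 fibroblast markers summed to 84.3 and 82.1 in Cdk9-DN day 10, against 151 and 155 in control day 5. Of these sums Mmp2 alone gave 52.6 and 49.9 FPKM in Cdk9-DN day 10, against 70.8 and 71.1 FPKM in control day 5. The 5 of 8 epithelial markers summed to 167 and 160 in Cdk9-DN day 10, against 21.4 and 21.8 in control day 5. The 5 of 8 pluripotency markers summed to 20.1 and 19.6 in Cdk9-DN day 10, against 0.316 and 0.372 in control day 5. Cells of both groups thus still expressed fibroblast genes, and the Cdk9-DN day 10 libraries held several times more epithelial RNA. Their pluripotency sums were higher by a larger factor, from control day 5 sums under 1 FPKM. Since these are bulk libraries, fewer cells of a type and less RNA per cell cannot be told apart. Among markers of other cells, 2 of 6 keratinocyte and trophoblast markers were listed in all 4 libraries and summed to 37.6 and 36.2 in Cdk9-DN day 10, against 3.44 and 4.02 in control day 5, nearly all from Sfn. The 3 of 5 endothelial and blood markers summed to 0.172 and 0.283 in Cdk9-DN day 10, against 0.953 and 1.83 in control day 5. Gata6, the 1 of 5 endoderm and mesoderm markers listed throughout, had 0.814 and 0.933 FPKM in Cdk9-DN day 10, against 0.805 and 0.871 FPKM in control day 5. The 1 of 4 neural markers listed, Nefl, is described with the genes above both control days. Cdk9, Pou5f1, Klf4 and Cdh1 were not analysed here, so the label Cdk9-DN could not be checked on Cdk9 itself.

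Of the 5798 genes tested, 1992 differed between Cdk9-DN day 10 and control day 5, or 34.4% of those tested. Of these, 1216 (21%) were higher and 776 (13.4%) were lower in Cdk9-DN day 10, and the median difference over all genes was 0.06. The split depended on the scaling: with median-of-ratios factors 985 were higher and 980 lower, around a median of -0.01. A difference of at least 1 in size was shown by 486 called genes (8.38%), 347 higher (5.98%) and 139 lower (2.4%). Among protein-coding genes 1168 of 2650 (44.1%) were called. Of the 2408 also tested in the comparisons with control day 10 below, 24.7% were higher and 19.8% lower. Many calls were of other types: 563 of 1437 processed pseudogenes were called, and 154 of 840 entries absent from the annotation of gene types. Few small RNA entries were called, 13 of 148 for microRNA and 7 of 189 for snoRNA. Without control day 5 replicate 2 the count was 1401, and without Cdk9-DN day 10 replicate 1, which gave the lowest count, it was 1333. Among the 4432 tested genes listed in all 4 libraries, the 2 groups did not overlap for 2879.

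The genes with the highest differences included secreted peptides and proteins of epithelial surfaces. Trh (chr6:92192055-92194644, mm9), the precursor of thyrotropin-releasing hormone, had 244 and 240 FPKM in Cdk9-DN day 10, against 3.21 and 3.06 FPKM in control day 5. It was 5.88 higher on the log2 scale (SE 0.188, limma adjusted p = 1.7e-06). Both Cdk9-DN libraries lay far above both control day 5 libraries, and control day 10 had 189 and 162 FPKM, against which Trh was not called (difference 0.47, adjusted p = 0.109). Npy (chr6:49772709-49779506), the precursor of neuropeptide Y, had 53.2 and 51.1 FPKM in Cdk9-DN day 10, against 0.201 and 0 FPKM in control day 5, while control day 10 had 134 and 123 FPKM. Cldn4 (chr5:135420996-135422804), a tight junction claudin, had 29.0 and 27.3 FPKM in Cdk9-DN day 10, against 0 and 0.0624 FPKM in control day 5, with adjusted p = 6.75e-08. For both genes the Cdk9-DN libraries stood clear of control day 5 and still under control day 10, where Cldn4 had 102 and 98.0 FPKM. Ly6d (chr15:74592486-74593997), a surface protein of epithelial and lymphoid progenitor cells, had 46.3 and 43.0 FPKM in Cdk9-DN day 10, against 0.599 and 0.206 FPKM in control day 5. Sprr1a (chr3:92287874-92289817), a cornified envelope protein, had 59.1 and 52.7 FPKM in Cdk9-DN day 10, against 0.727 and 0.832 FPKM in control day 5. Saa1, an acute phase apolipoprotein, had 35.3 and 35.5 FPKM in Cdk9-DN day 10 and was listed at 0 in both control day 5 libraries. The other genes named by the same rule were Saa3, Capsl, Pdzk1ip1, Smagp, Pvrl2 and AI316807, whose Cdk9-DN day 10 levels were between 11.1 and 31.1 FPKM and whose control day 5 levels were under 1 FPKM. The highest adjusted p among these 12 genes was 0.000473, for AI316807. Pvrl2 was listed at 0 in both control day 5 libraries but at 27.5 and 28.5 FPKM in the control day 4 libraries, so that its control values were 0 and well above 0 a day apart.

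The RefSeq promoter window of Trh is shown because its transcript had the highest difference of all genes named. It spans 250 bases before to 50 after the start, chr6:92244601-92244900 on the minus strand of GRCm38.p6, a later build than the mm9 of the files, and capitals mark the GC box motif GGGCGG or the TATA box motif, spelled TATAAA, each on either strand.
Trh: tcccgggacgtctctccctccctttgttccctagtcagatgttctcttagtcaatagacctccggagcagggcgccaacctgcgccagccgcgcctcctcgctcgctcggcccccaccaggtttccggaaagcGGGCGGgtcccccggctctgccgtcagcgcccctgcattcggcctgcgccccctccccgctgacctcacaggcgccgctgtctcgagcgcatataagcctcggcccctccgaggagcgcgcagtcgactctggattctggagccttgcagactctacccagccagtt
The window held GGGCGG and no TATAAA. Promoter windows were matched for 1839 of the 5798 tested genes. TATAAA on either strand was present in 12.3% of the 464 windows of genes called higher, in 10.3% of the 360 windows of genes called lower, and in 9.52% of the 1839. GGGCGG was present in 57.8% of the windows of genes called higher, in 67.2% of those called lower and in 62.5% of the 1839. Over all 27025 windows of the table, 14.2% held TATAAA and 35.9% held GGGCGG.

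Genes with the lowest differences included several secreted or surface products of fibroblasts. Sfrp2 (chr3:83570243-83578238), a secreted Wnt modulator, had 4.50 and 4.00 FPKM in Cdk9-DN day 10, against 77.8 and 69.8 FPKM in control day 5. It fell by 3.83 on the log2 scale (SE 0.117, limma adjusted p = 1.37e-06), with control day 10 at 5.26 and 5.39 FPKM. Thy1 (chr9:43851467-43856662), a fibroblast surface glycoprotein, had 18.0 and 16.8 FPKM in Cdk9-DN day 10, against 60.5 and 59.5 FPKM in control day 5. For both genes the groups did not overlap, and neither gene was called against control day 10, where the single Thy1 value listed was 16.3 FPKM (differences of -0.27 for Sfrp2 and 0.08 for Thy1). Ptx3, a secreted pentraxin, had 1.70 and 1.70 FPKM in Cdk9-DN day 10, against 16.3 and 13.8 FPKM in control day 5, and was also under the 3.15 and 2.88 FPKM of control day 10. Mgp, the matrix Gla protein, had 44.1 and 42.0 FPKM in Cdk9-DN day 10, against 140 and 129 FPKM in control day 5. Sostdc1, a secreted BMP and Wnt antagonist, had 10.5 and 11.1 FPKM in Cdk9-DN day 10, against 43.0 and 44.0 FPKM in control day 5. The other genes of this group were Fbln1, a matrix fibulin, Gas1, a surface protein of arrested fibroblasts, Fam131b, Syt13, Cd276 and Basp1, which were all lower by between 1.59 and 1.88 on the log2 scale. The highest adjusted p of the genes lowest by this rule was 0.000217, for Gas1. Rnmtl1 was listed at 0 in both Cdk9-DN day 10 libraries and at 28.8 and 35.0 FPKM in control day 5, but also at 0 in all 4 libraries of control days 4 and 10.

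The course of control cells was taken from control day 10 against control day 4, which shares no library with Cdk9-DN day 10 against control day 5. In it, 2895 of 5811 genes were called (49.8%), 1633 higher (28.1%) and 1262 lower (21.7%) at day 10; quantile normalization turned the split to 1032 higher and 1624 lower, with the median over all genes moving to -0.11 against 0.07 as deposited. Among the 1556 genes that rose along this course and were tested in both, 932 (59.9%) were higher in Cdk9-DN day 10 than in control day 5 and 16 were lower, where 21% of all genes tested were higher. Among the 1185 genes that fell along it, 604 (51.0%) were lower in Cdk9-DN day 10 and 25 were higher, where 13.4% of all genes were lower. The 2775 genes not called in the course gave 189 higher and 118 lower. The sizes were smaller than the course: genes that rose had a median of 0.44 in Cdk9-DN day 10 minus control day 5, against 0.79 in the course itself, and genes that fell had -0.38, against -0.72. Restricted to protein-coding genes, 499 of 760 course risers were higher and 407 of 760 course fallers were lower. Across the 5516 genes tested in both, Pearson's r was 0.40 and Spearman's rho 0.59, and across the 2408 protein-coding genes they were 0.80 and 0.79; genes are not independent replicates, and these are given without a test.

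**Figure D1:**
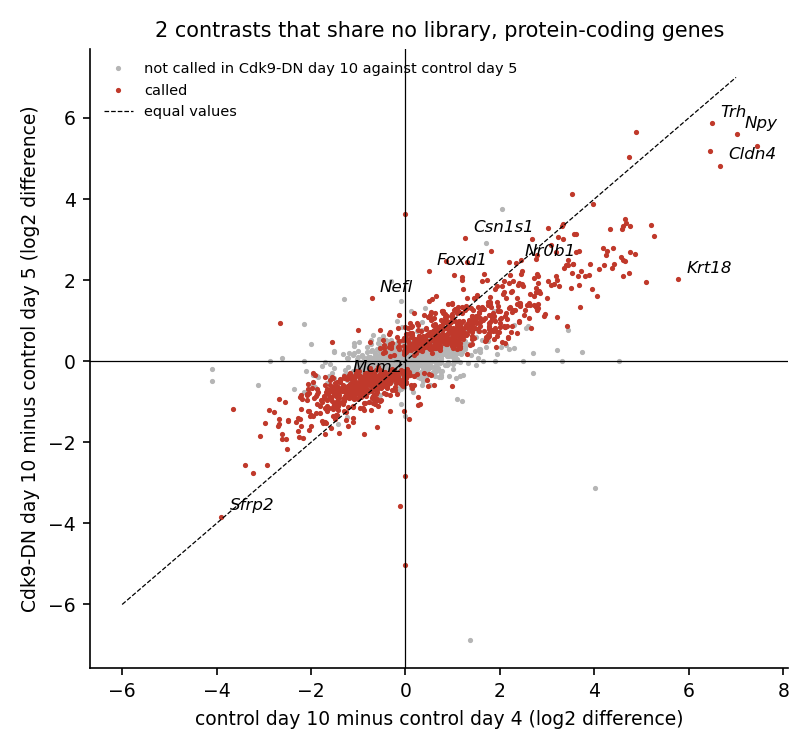
Each point is 1 protein-coding gene, with the log2 difference of control day 10 minus control day 4 on the horizontal axis and of Cdk9-DN day 10 minus control day 5 on the vertical axis; red points were called in Cdk9-DN day 10 against control day 5 at adjusted p under 0.05, and the dashed line marks equal values. Protein-coding genes called higher along the course have a median of 0.62 on the vertical axis against 1.03 on the horizontal one, whose values chose them. Foxd1 and Nefl lie above the line. The lowest grey point is Ifitm1, singled out after its values were seen. It was listed at 0 in both Cdk9-DN day 10 libraries and was not called.

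The early effect of the vector was read at day 4. In Cdk9-DN day 4 against control day 4, 2 of 5947 genes were called by limma (0.0336%), 0 higher and 2 lower, and 382 had an unadjusted p under 0.05. The 2, named after their values were seen, were a SNORA35 entry and Dhrs13 (chr11:77845782-77851368, mm9), a short-chain dehydrogenase. Dhrs13 was also below both control days at day 10: it was listed at 0 in all 5 Cdk9-DN libraries of days 4, 5 and 10 that list it, against 11.9 and 11.2 FPKM in control day 4, 9.22 and 12.6 FPKM in control day 5, and 10.5 FPKM in the 1 control day 10 library that lists it. The differences of Cdk9-DN day 4 minus control day 4 and those of Cdk9-DN day 10 minus control day 5 had a Pearson correlation of 0.0017 across 5594 genes. That value is given as a description, from libraries that the contrasts do not share.

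Distances between libraries, the median absolute difference of log2(FPKM + 1) over 3444 genes listed in all 14 libraries, are given as a description. The 4 pairs with control day 10 averaged 0.325 (0.301 to 0.352), the 4 pairs with control day 5 averaged 0.384 (0.361 to 0.400), and the 4 pairs with control day 4 averaged 0.384. Control day 10 and control day 5 were themselves 0.537 apart, and the 2 Cdk9-DN day 10 replicates were 0.137 apart. Cdk9-DN day 10 therefore lay nearer to control day 10 than to control day 5 by median distance, and farther from both than its replicates lay from each other. Among 786 protein-coding genes the averages were 0.380 to control day 10 and 0.419 to control day 5. The distance to control day 5 was 1.18 times that to control day 10 by the median, and 1.05 times by the root mean square difference. By root mean square the pairs overlapped, at 1.28 to 1.41 for control day 10 and 1.37 to 1.51 for control day 5. On that measure the 2 Cdk9-DN day 10 replicates were 1.27 apart, almost as far as the nearest control day 10 pair. The median distances overlapped slightly after median-of-ratios scaling, at 0.2946 to 0.349 for control day 10 and 0.3485 to 0.3737 for control day 5.

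**Figure D2:**
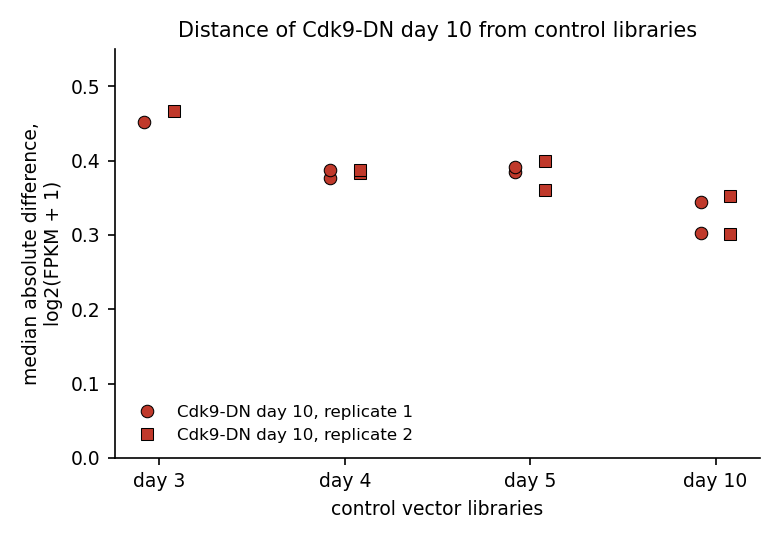
The vertical axis gives the median absolute difference of log2(FPKM + 1) between a Cdk9-DN day 10 library and a control library, for control libraries of each day along the horizontal axis, circles for replicate 1 and squares for replicate 2. The 4 points of day 10 lie between 0.301 and 0.352, below all 4 of day 5, which lie between 0.361 and 0.400.

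Setting Cdk9-DN day 10 against both control days at once sorted the genes into positions. These positions use the Cdk9-DN day 10 libraries in both contrasts, so the 2 are not independent. Against control day 10, 1617 of 5737 genes were called (28.2%), 812 higher and 805 lower in Cdk9-DN day 10, while quantile normalization gave 754 higher and 501 lower. Of 5602 genes tested in both, 636 (11.4%) lay between the control days, called against each: 380 were above control day 5 and below control day 10, and 256 were below control day 5 and above control day 10. A further 629 were above control day 5 and 408 below it with no call against control day 10. No call against control day 5 but one against control day 10 was found for 384 higher and 322 lower genes. Outside both control days in the same direction lay 237 genes (4.23%), 147 above both (2.62%) and 90 below both (1.61%), and 2986 were called in neither contrast. The split of those outside depended on the scaling, with 113 above both and 113 below both by median-of-ratios factors, and 92 above and 66 below after quantile normalization. Thus 636 genes held a level between the control days and 237 held one that neither control day showed, and a missing call does not place a gene at a control day's level.

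Of 8 epithelial genes tested against both control days, 7 lay between them, where 11.4% of all genes and 16.8% of protein-coding genes did. Of 30 on the list, 19 were listed in any library and 9 were tested, and 8 of these 9 were higher in Cdk9-DN day 10 than in control day 5 and none lower, with a median of 2.10 beside 0.06 over all genes. Over all genes tested, 21% were higher than control day 5. All 8 epithelial genes tested against control day 10 were lower than there, where 14% of all genes were. Krt8, a simple epithelial keratin, had 97.9 and 98.2 FPKM in Cdk9-DN day 10, against 15.6 and 15.5 FPKM in control day 5, and 189 FPKM in the 1 control day 10 library that lists it. Its partner Krt18 (chr15:101858647-101862457) had 7.10 and 6.31 FPKM in Cdk9-DN day 10, against 0.853 and 0.921 FPKM in control day 5, while control day 10 had 86.6 and 83.8 FPKM. Krt18 was 2.03 higher than control day 5 (SE 0.131, limma adjusted p = 4.99e-05) and lower than control day 10 by a difference of -3.49. Krt8 differed less from control day 10, by -0.94 on the same scale. Cldn3 had 29.1 and 24.9 FPKM in Cdk9-DN day 10, against 4.98 and 5.32 FPKM in control day 5. Epcam, an epithelial adhesion molecule, was listed in 1 Cdk9-DN day 10 library at 55.9 FPKM, against 1.47 and 1.15 FPKM in control day 5. Keratinocyte and trophoblast markers were also higher than control day 5, 4 of 4 tested. Against control day 10, 2 of 4 were lower, and Krt5 and Lor were not called. Sfn had 37.6 and 36.2 FPKM in Cdk9-DN day 10, against 3.44 and 4.02 FPKM in control day 5. Krt5 was listed in 1 Cdk9-DN day 10 library, at 11.9 FPKM. Krt4 and Lor were low, with 0.649 and 0.459 FPKM and 1.33 and 1.52 FPKM in Cdk9-DN day 10. The part of these 4 markers in the epithelial result was not tested.

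Pluripotency genes were higher than in control day 5 as well. Against control day 10, 7 of 12 were lower, where 14% of all genes tested were. Nr0b1, also on this list, was higher than control day 10 by 1.22 and is described with the genes above both control days. Of 32 on the list, 22 were listed in any library and 12 were tested. Of these, 8 were higher than control day 5, none was lower and 4 were not called, with a median of 1.35. That was 66.7% called, beside 34.4% of all genes tested and 44.1% of protein-coding genes. Tdgf1, a Nodal co-receptor, had 8.69 and 7.35 FPKM in Cdk9-DN day 10, against 0 and 0.0582 FPKM in control day 5. Dppa5a had 4.78 and 5.06 FPKM in Cdk9-DN day 10, against 0.0878 and 0 FPKM in control day 5. Utf1 had 5.14 and 5.92 FPKM in Cdk9-DN day 10 and was listed at 0 in both control day 5 libraries. In control day 10 these genes had 10.7 and 10.9 FPKM for Tdgf1, 26.8 and 21.4 FPKM for Dppa5a, and 12.9 and 10.7 FPKM for Utf1, all above the Cdk9-DN day 10 libraries. Nanog, a core pluripotency factor, had 6.24 FPKM in the 1 Cdk9-DN day 10 library that lists it, against 1.15 and 1.63 FPKM in control day 5 (adjusted p = 0.00256). Sox15 was listed at 0 in both control day 5 libraries and had 6.63 and 11.0 FPKM in Cdk9-DN day 10. Sox2 and Myc were not listed in either Cdk9-DN day 10 library.

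**Figure D3:**
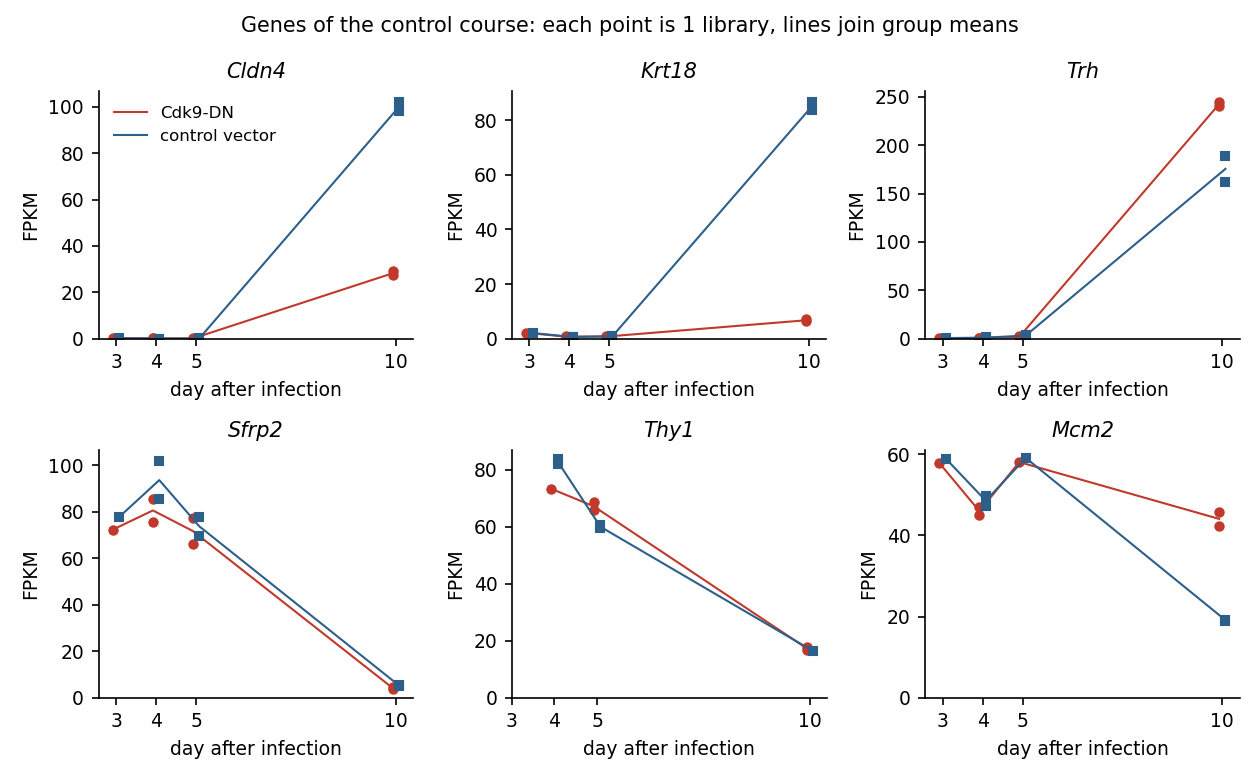
Each panel shows the FPKM of 1 gene (vertical axis) against the day after infection (horizontal axis), red circles for Cdk9-DN and blue squares for control libraries, with lines through the group means. Cldn4, Krt18 and Mcm2 stand between control day 5 and control day 10 in Cdk9-DN day 10. Trh stands above both control day 10 libraries and Sfrp2 below both, with neither called against control day 10. Thy1, also not called, stands slightly above the 1 control day 10 value listed.

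Mesenchymal and fibroblast genes were lower than in control day 5, as were 13.4% of all genes tested. All 6 tested mesenchymal genes of 16 on the list were lower in Cdk9-DN day 10, with a median of -1.28. Only Snai2 was listed in both control day 5 libraries, while Snai1, Twist1, Twist2, Cnn1 and Tgfb3 each rest on 1 value there. Without control day 5 replicate 2, only Snai2 and Twist2 keep a control day 5 value. Snai2, a repressor of epithelial genes, had 0.842 and 0.751 FPKM in Cdk9-DN day 10, against 4.04 and 3.51 FPKM in control day 5, and control day 10 had 0.572 and 0.616 FPKM. Against control day 10 the 6 went both ways around a median of -0.04: 1 was higher and 2 were lower, Cnn1 by a difference of -0.71 and Tgfb3 by one of -0.86, so that both were below both control days. Of 5 tested fibroblast genes, 4 were lower, including Thy1 and Pdgfra, a receptor of platelet-derived growth factor with 0.383 and 0.429 FPKM in Cdk9-DN day 10, against 2.47 and 2.54 FPKM in control day 5. Mmp2 was below both control days, with 52.6 and 49.9 FPKM in Cdk9-DN day 10, against 70.8 and 71.1 FPKM in control day 5. The 1 control day 10 library that lists Mmp2 had 74.8 FPKM. Dcn, the matrix proteoglycan decorin, was closer to control day 5: it had 12.5 and 13.997 FPKM in Cdk9-DN day 10, against 15.8 and 19.8 FPKM in control day 5, while control day 10 had 3.73 and 4.42 FPKM. Its difference from control day 5 was -0.39 (adjusted p = 0.0351), a call lost under several alternatives.

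S phase genes lay between the control days for 6 of 8 tested, with 6 of 8 lower than control day 5, 7 of 8 higher than control day 10, and medians of -0.52 and 0.80. Over all genes tested, 11.4% lay between, 13.4% were lower than control day 5 and 14.2% were higher than control day 10. Among protein-coding genes 16.8% lay between. Mcm2, a subunit of the replicative helicase, had 45.8 and 42.2 FPKM in Cdk9-DN day 10, against 59.0 FPKM in the 1 control day 5 library that lists it, and control day 10 had 19.3 and 19.0 FPKM. Mcm4 had 29.0 and 28.2 FPKM in Cdk9-DN day 10, against 44.9 and 46.2 FPKM in control day 5. Mitosis genes were all lower than control day 5, 5 of 5 with a median of -0.99, and 1 of 5 was called against control day 10, with a median of 0.17. Over all genes tested, 28.2% were called against control day 10. Plk1, a mitotic kinase, had 22.3 and 19.9 FPKM in Cdk9-DN day 10, against 50.9 and 52.2 FPKM in control day 5, and control day 10 had 19.0 and 18.1 FPKM. Whether mitosis genes differ from S phase genes was not tested.

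Among ribosome biogenesis genes, 3 of 4 were lower than control day 5 with a median of -0.74, though 1 call was left without Cdk9-DN day 10 replicate 1. Rrs1, a ribosome assembly factor, had 44.3 and 45.2 FPKM in Cdk9-DN day 10, against 71.2 and 69.4 FPKM in control day 5, and control day 10 had 18.8 and 19.8 FPKM. Over all genes tested, 34.4% were called against control day 5, and 13.4% were lower. Among protein-coding genes 44.1% were called. Of 6 tested pausing and elongation factors, 3 were lower and none higher, and 1 call was left without Cdk9-DN day 10 replicate 1. Hexim1, an inhibitory partner of P-TEFb, had 11.1 and 11.6 FPKM in Cdk9-DN day 10, against 16.8 and 15.4 FPKM in control day 5 (difference -0.46, SE 0.0877, adjusted p = 0.00844), and this call was lost without Cdk9-DN day 10 replicate 1. Of 44 tested core histone genes, 5 were higher and 1 was lower than control day 5, or 13.6% called beside 34.4% of all genes, while 24 were higher than control day 10, where 14.2% of all genes were, and 1 was lower, with medians of 0.16 and 0.66.

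TGF-beta response genes were mixed against control day 5 and lower against control day 10. Of 7 tested, 5 were higher and 2 lower than control day 5, and 6 were lower than control day 10. Over all genes tested, 21% were higher and 13.4% lower than control day 5, and 14% were lower than control day 10. Ctgf, a matricellular protein, had 196 and 193 FPKM in Cdk9-DN day 10, against 78.6 and 75.0 FPKM in control day 5, and 376 FPKM in the 1 control day 10 library that lists it. Id1, an inhibitor of basic helix-loop-helix factors, had 185 and 172 FPKM in Cdk9-DN day 10, against 66.1 and 66.8 FPKM in control day 5, and control day 10 had 347 and 331 FPKM. Tgfbi went the other way, with 3.04 FPKM in 1 Cdk9-DN day 10 library, against 18.7 and 15.9 FPKM in control day 5. Immediate early genes gave 5 higher and 3 lower of 16, with 11 of 16 lower than control day 10, and 5 calls against control day 5 were left without Cdk9-DN day 10 replicate 2. Those called against control day 5 were 50% of the immediate early genes, beside 34.4% of all genes tested and 44.1% of protein-coding genes. Jund had 93.8 and 88.2 FPKM in Cdk9-DN day 10, against 42.6 and 43.7 FPKM in control day 5.

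**Figure D4:**
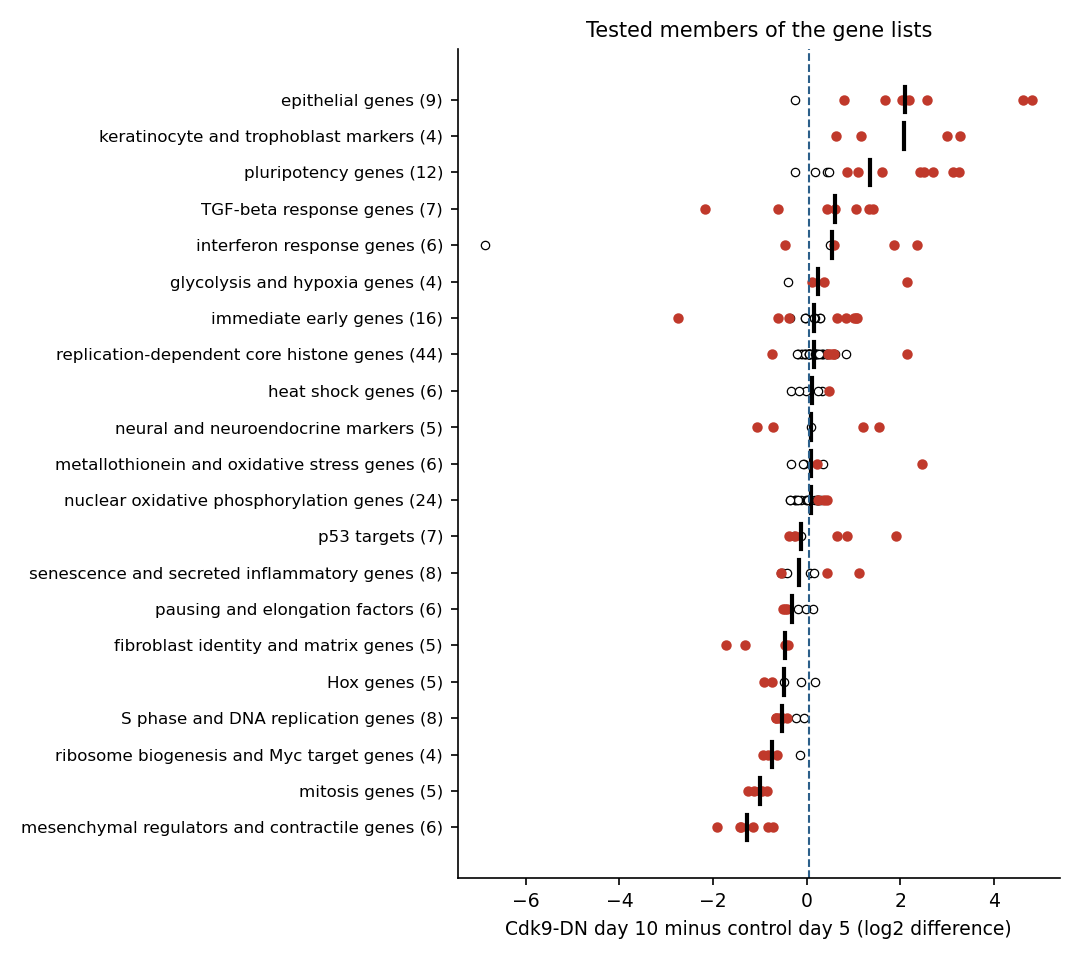
Each row is a gene list with the number of members tested in parentheses, each point a member's log2 difference of Cdk9-DN day 10 minus control day 5, red where called and open where not, black bars the list medians and the dashed line the median of all genes tested. Of the lists shown, epithelial genes have the highest median at 2.10 and mesenchymal genes the lowest at -1.28.

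Genes outside both control days included transcription factors and secreted proteins. Foxd1 (chr13:99124200-99126660), a forkhead factor of kidney stroma, had 138 and 133 FPKM in Cdk9-DN day 10, against 27.6 and 29.4 FPKM in control day 5, and control day 10 had 17.1 and 27.8 FPKM. It was 2.21 higher than control day 5 (SE 0.226, limma adjusted p = 7.54e-04) and 2.58 higher than control day 10 (SE 0.226, adjusted p = 7.13e-04). Its Cdk9-DN day 5 level was 22.7 FPKM in the 1 library that lists it, beside 27.6 and 29.4 FPKM in control day 5. Nefl (chr14:68701920-68707152), the light neurofilament subunit, had 13.3 and 13.5 FPKM in Cdk9-DN day 10, against 3.98 and 3.84 FPKM in control day 5, and control day 10 had 2.02 and 1.798 FPKM. Nr0b1 (chrX:83437103-83441286), an orphan nuclear receptor also called Dax1 and expressed in embryonic stem cells, had 10.4 and 11.4 FPKM in Cdk9-DN day 10, against 1.36 and 1.06 FPKM in control day 5, and control day 10 had 4.29 and 3.91 FPKM. Both Cdk9-DN day 10 libraries were above all 4 control libraries for each of these genes. Csn1s1, a casein, had 18.4 and 17.9 FPKM in Cdk9-DN day 10, against 1.75 and 0.992 FPKM in control day 5, and control day 10 had 5.62 and 4.45 FPKM. Shisa3, a Wnt and FGF modulator, had 32.8 and 31.7 FPKM in Cdk9-DN day 10, against 7.01 and 7.53 FPKM in control day 5, and control day 10 had 12.9 and 12.4 FPKM. Nppc, a natriuretic peptide, Aldh1a1, a retinaldehyde dehydrogenase, and AI316807 completed the group by the same rule. Of 5 tested neural list members, 2 were higher and 2 lower than control day 5, beside 21% and 13.4% of all genes. Besides Nefl, Neurog2, a proneural factor, was above both control days. Nes, the intermediate filament nestin, was lower than control day 5 by a difference of -0.72. Nefm, the medium neurofilament subunit, was listed at 0 in both Cdk9-DN day 10 libraries and below both control days. Insm1, a neuroendocrine zinc finger factor, was not called against control day 5 (difference 0.09).

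The promoters of Foxd1 (chr13:98353995-98354294, plus strand) and Nr0b1 (chrX:86191525-86191824, plus strand), in GRCm38.p6, are shown because these 2 genes were above both control days, with the same marking by capitals.
Foxd1: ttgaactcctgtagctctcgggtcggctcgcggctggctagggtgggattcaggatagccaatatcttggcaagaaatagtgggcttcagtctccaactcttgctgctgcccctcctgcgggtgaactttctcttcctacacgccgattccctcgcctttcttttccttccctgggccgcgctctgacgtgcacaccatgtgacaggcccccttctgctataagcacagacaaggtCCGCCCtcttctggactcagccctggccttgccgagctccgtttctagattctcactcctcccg
Nr0b1: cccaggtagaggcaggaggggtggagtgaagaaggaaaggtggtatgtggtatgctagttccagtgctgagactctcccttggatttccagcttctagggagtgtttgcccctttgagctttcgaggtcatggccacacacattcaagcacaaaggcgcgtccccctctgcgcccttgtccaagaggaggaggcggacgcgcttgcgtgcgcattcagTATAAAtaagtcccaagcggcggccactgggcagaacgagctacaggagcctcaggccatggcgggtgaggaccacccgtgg
The Foxd1 window held GGGCGG on the minus strand, printed as its reverse complement, and no TATAAA, and the Nr0b1 window held TATAAA and no GGGCGG. Among genes above both control days, 12.1% of 66 windows held TATAAA and 51.5% held GGGCGG, and among genes below both, 3.70% of 54 windows held TATAAA and 81.5% held GGGCGG.

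Among genes below both control days were signalling and matricellular genes. Rgs16 (chr1:155587479-155592598), a regulator of G protein signalling, had 12.4 and 12.8 FPKM in Cdk9-DN day 10, against 25.5 and 23.4 FPKM in control day 5, and control day 10 had 27.1 and 24.6 FPKM. Cyr61, a matricellular target of TGF-beta and YAP, had 70.9 and 67.6 FPKM in Cdk9-DN day 10, against 107 and 106 FPKM in control day 5, and 221 FPKM in the 1 control day 10 library that lists it. Cyr61 differed from control day 5 by -0.62 (SE 0.0462, adjusted p = 0.00144). Glipr2 had 4.77 and 4.31 FPKM in Cdk9-DN day 10, against 14.5 and 15.0 FPKM in control day 5, and control day 10 had 12.5 and 9.94 FPKM. Sncg, gamma-synuclein, had 4.08 and 5.88 FPKM in Cdk9-DN day 10, against 11.4 and 11.7 FPKM in control day 5. Ier5l, Plac8, B4galt1 and Gchfr were the others, lower than control day 5 by between 0.59 and 1.11 on the log2 scale. Of the 90 genes below both, 71 were protein-coding, with a median difference from control day 5 of -0.60, and of the 147 above both, 80 were protein-coding, with a median of 0.68; 21 of the 147 and 11 of the 90 were listed at 0 in a whole group.

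**Figure D5:**
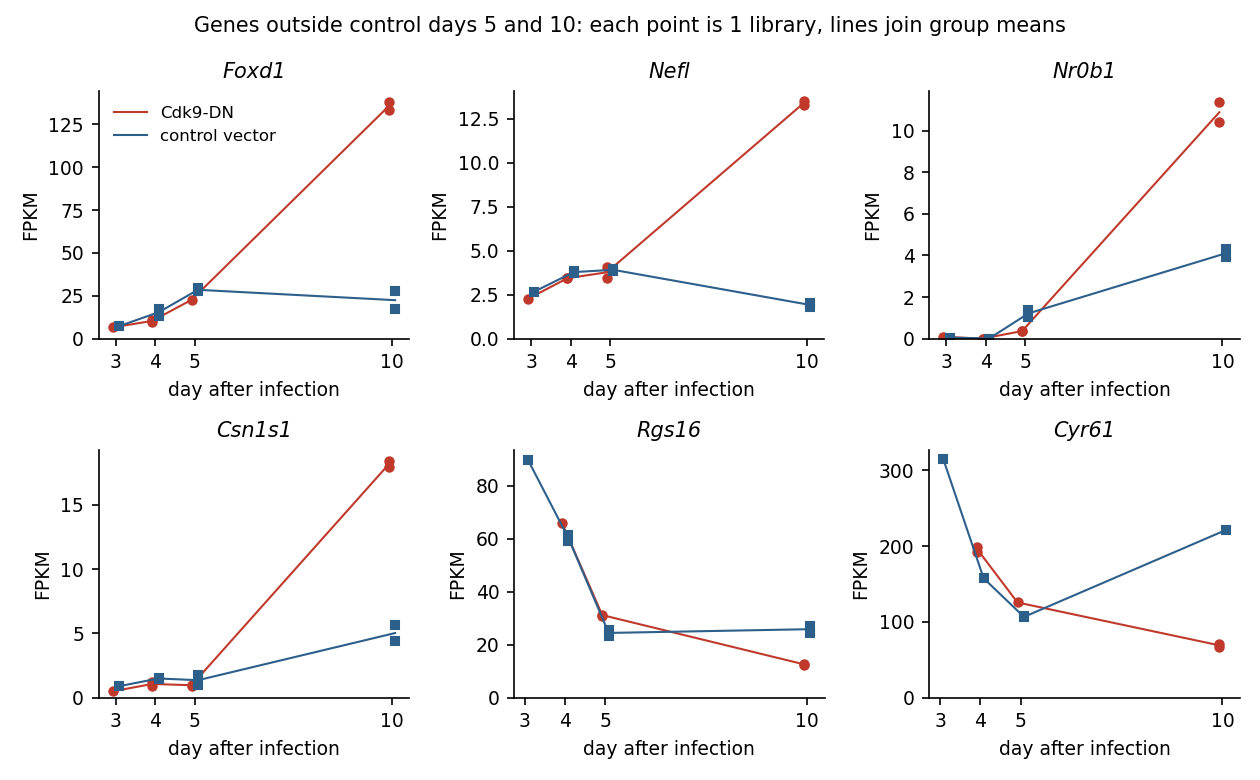
Axes and symbols are FPKM (vertical) against day after infection (horizontal), red circles for Cdk9-DN and blue squares for control libraries. Foxd1, Nefl, Nr0b1 and Csn1s1 stand above every control library at day 10 in Cdk9-DN, and Rgs16 and Cyr61 stand below every control library shown.

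The number of such genes depended on which libraries were used. Among 141 genes above both that were also tested at day 4, the Cdk9-DN day 4 minus control day 4 difference had the same sign in 51, and among 85 below both it did in 42. Over all 5594 genes tested in both, the sign was the same as in Cdk9-DN day 10 against control day 5 for 47.0%. A day 4 difference of exactly 0, as for Nr0b1, was not counted as the same sign, so the remaining genes did not all go the other way. Without Cdk9-DN day 10 replicate 1 the count outside was 112, without Cdk9-DN day 10 replicate 2 it was 127, and without control day 10 replicate 1 it was 157, against 237 with all libraries; without control day 5 replicate 2 it was 165. Requiring a difference of at least 1 in size against both control days left 41 genes.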

How the data were processed

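Bulk RNA libraries of mouse cells were sequenced by the authors and deposited as FPKM values per gene, 1 file per library. Per the submitters' processing notes, CASAVA 1.8.2, TopHat2 2.0.10, Cufflinks 2.2.1 and the mouse build NCBIM37 (mm9) were used. The FPKM were taken as deposited, with 16 genes having several entries summed and 1 entry of failed status left out, and start coordinates were raised by 1 because the files count them from 0. Groups were the vector and the day in the labels. A cell-means model of 6 groups over 12 libraries of days 4, 5 and 10 was fitted to log2(FPKM + 1) in R 4.3.3 with the moderation of limma 3.58.1, for genes with at least 1 FPKM in at least 2 libraries and at least 2 residual degrees of freedom, per pattern of missing values. Genes were called at an adjusted p under 0.05. A gene with no residual spread was not tested, and day 3, with 1 library per vector, stayed out of the fit. Counts were not used here, and fragments per library were estimated from the confidence bounds of protein-coding genes annotated with a single transcript, so they are approximate. The 23 gene lists, the members described and the genes named were chosen with earlier results of these data known. Genes named were the 12 highest and 12 lowest called protein-coding genes listed in all 4 libraries, not overlapping and with a higher group mean of at least 5 FPKM; the 8 highest and lowest outside both control days by the same conditions; up to 4 called members of each list; and 12 fixed genes, 114 in all. Gene types came from a reference annotation that held 83.5% of the identifiers, and promoter sequences from RefSeq (GRCm38.p6). Alternatives were another pseudocount, other filters, scalings and gene sets, a replicate block, separate fits, and leaving out each library; those of genes with discordant 0 values and of protein-coding correlations were added after the data were seen. The script was tested on simulated data. Replicate numbers did not pair the libraries.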

Additional observations from a re-analysis of the deposited data

How the results depend on the processing

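Of the 114 genes named, 20 lost a call under at least 1 alternative, and the other 94 kept theirs under each alternative in which they could be tested; no direction reversed. Not every gene was tested in each: with genes listed in all 12 libraries, 49 kept the call and 1 lost it, and with the separate fit 77 kept it and 12 lost it. Against control day 5, 1047 genes were called with genes listed in all 12 libraries only, 1090 with a separate fit of the 2 groups and 486 with a difference of at least 1; leaving out 1 library of these 2 groups gave 1333 to 1518. Against control day 10 these were 768, 300 and 316, and 884 to 1202 without 1 library of the 2 groups compared. For control day 10 against control day 4 the counts were 1498, 1609 and 972, and 1798 with protein-coding genes alone. For Cdk9-DN day 4 against control day 4 they were 6 with a pseudocount of 0.1, 13 with no filter, 1 with genes listed in all 12 libraries, 4 with protein-coding genes, 15 with a separate fit, and 3 to 10 without 1 library of these groups. Genes outside both control days were 157 at 5 FPKM, 119 with genes listed in all 12 libraries, 42 with a separate fit and 41 with a difference of at least 1, and 112 to 194 without 1 library of the 3 groups. The distance ratio was 1.05 by root mean square and 1.14 after median-of-ratios scaling. The correlation with the control course was 0.59 by rank, 0.80 over genes called in the course and 0.80 over protein-coding genes, and that with the early vector effect was 0.0693 over protein-coding genes. The causes were not tested, apart from the fewer genes or libraries that some settings use. With the replicate number as a block, although the correlations of same-numbered libraries (-0.16 to 0.10) do not pair them, 1760 genes were called against control day 5 and 205 lay outside both control days. An estimated depth of 8790000 to 12960000 fragments and 2 libraries per group limit what low genes can show.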

Other observations

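Other gene lists held a few genes that differed between Cdk9-DN day 10 and control day 5. Of all genes tested 34.4% were called, 21% higher and 13.4% lower. Among protein-coding genes 44.1% were called, above the 33.3% and 37.5% given below as near the share over all genes. Among 7 tested p53 targets, 3 were higher and 2 lower, and 3 were called without Cdk9-DN day 10 replicate 2. Perp, a desmosomal protein and p53 target, had 172 and 176 FPKM in Cdk9-DN day 10, against 46.3 and 45.3 FPKM in control day 5 (difference 1.90, limma adjusted p = 5.28e-07). Among 6 interferon response genes, 3 were higher and 1 lower, with 1 or 2 calls without any 1 of the 4 libraries. Bst2, an antiviral membrane protein, had 130 and 129 FPKM in Cdk9-DN day 10, against 36.8 and 32.7 FPKM in control day 5. Among 6 metallothionein and oxidative stress genes, 2 were higher and none lower, or 33.3% called, near the share over all genes, and none was called without control day 5 replicate 2. Gsta4, a glutathione transferase, had 459 and 471 FPKM in Cdk9-DN day 10, against 84.1 FPKM in the 1 control day 5 library that lists it. Among 4 glycolysis and hypoxia genes, 3 were higher, and none was called without Cdk9-DN day 10 replicate 1. Bnip3, a hypoxia-induced mitophagy receptor, had 99.1 FPKM in 1 Cdk9-DN day 10 library, against 20.8 and 22.8 FPKM in control day 5.

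Of 24 tested oxidative phosphorylation genes, 3 were higher and none lower, or 12.5% called beside 34.4% of all genes, and 1 was called without control day 5 replicate 2 or without Cdk9-DN day 10 replicate 1. Of 5 tested Hox genes, 2 were lower, among them Hoxd13 with 2.38 and 2.27 FPKM in Cdk9-DN day 10, against 5.37 and 5.18 FPKM in control day 5. Of 8 tested senescence and secreted inflammatory genes, 2 were higher and 1 lower, or 37.5% called, near the share over all genes, and Ccl2, a chemokine, had 24.8 and 25.7 FPKM in Cdk9-DN day 10, against 37.5 and 37.7 FPKM in control day 5. Of 6 tested heat shock genes, 1 was called, Hspb8, and 3 with median-of-ratios scaling. Of 2 tested endothelial and blood markers, Cldn5 was higher and Lyz2 lower, and of 2 endoderm and mesoderm markers Hand2 was lower, with 1.47 and 1.37 FPKM in Cdk9-DN day 10, against 3.88 and 3.55 FPKM in control day 5.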
